A study of Mus musculus with 4 samples.

Results

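The liver makes glucose from lactate, glycerol and amino acids by gluconeogenesis, and 10 genes of this pathway are described here: the enzyme and transporter genes Pck1, Pck2, G6pc, Fbp1, Pcx and Slc37a4 and the regulator genes Ppargc1a, Creb1, Crtc2 and Sik1. They were chosen by name as known members of the pathway, and each had exactly 1 row among the 22849 gene symbols of the expression table. RNA came from frozen livers of male mice of the inbred strain C57BL/6, kept for 12 weeks on food with 60% fat. In the vehicle group (2 libraries) the diet held no UAB126, and in the UAB126 group (2 libraries) it held 1.2 g of the compound per kg of diet, so both groups shared the high fat diet. UAB126 is known here only by its code name, and the age of the mice and whether they were fed or fasted were not stated in the labels. The titles only number the libraries and do not tie them to individual mice, so p-values measure only the spread between these 4 libraries, which may be technical. The comparison asks how UAB126 in the diet was linked to the RNA levels of these genes.

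Gluconeogenesis runs most steps of glycolysis in reverse and bypasses the irreversible ones with its own enzymes. Pyruvate carboxylase (Pcx) and phosphoenolpyruvate carboxykinase (Pck1 in the cytosol, Pck2 in mitochondria) carry pyruvate to phosphoenolpyruvate, fructose-1,6-bisphosphatase (Fbp1) undoes the phosphofructokinase step, and glucose-6-phosphatase (G6pc) with the transporter of its substrate (Slc37a4) releases free glucose. Glucagon raises cAMP and activates CREB (Creb1) and its coactivator CRTC2, which induce Pck1, G6pc and the coactivator gene Ppargc1a, while the kinase SIK1, itself induced by cAMP, holds CRTC2 in check, and insulin represses the same genes through FOXO1.

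None of the 10 genes passed the test, and they did not move as a block. Pck1 was 2.49-fold higher in mean FPKM with UAB126 and was the only one with an unadjusted p under 0.05. Fbp1 and Slc37a4 were 1.503-fold and 1.54-fold lower, and G6pc and Pcx overlapped between the groups. Pck2, Ppargc1a and Creb1 were low in all libraries and higher in both UAB126 libraries. FPKM count fragments relative to the length of the transcript and the mapped total of the library, so levels of different genes can be compared per length. Differences are on the log2(FPKM + 1) scale, UAB126 minus vehicle, ± is limma's moderated SE (n = 2 per group), and a Benjamini-Hochberg adjusted p under 0.05 over all 10786 tested symbols was the threshold. By limma, 0 of the 10 genes passed, against 0.139% of all tested symbols (0.0464% higher and 0.0927% lower with UAB126). Of the 10, 1 had an unadjusted p under 0.05, against 13.4% of all (5.03% higher and 8.38% lower). Both UAB126 libraries lay above both vehicle libraries in 4 genes and below them in 2, against 22.7% and 26.9% of all tested symbols. The groups thus did not overlap in 6 of 10, near the 49.6% of all tested symbols. The median difference of the 10 genes was 0.09, beside -0.03 over all tested symbols, and it ran from -0.18 to 0.26 over the fits without 1 library. An exact two-sided permutation of 2 against 2 libraries cannot go below p = 0.333.

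**Figure D1:**
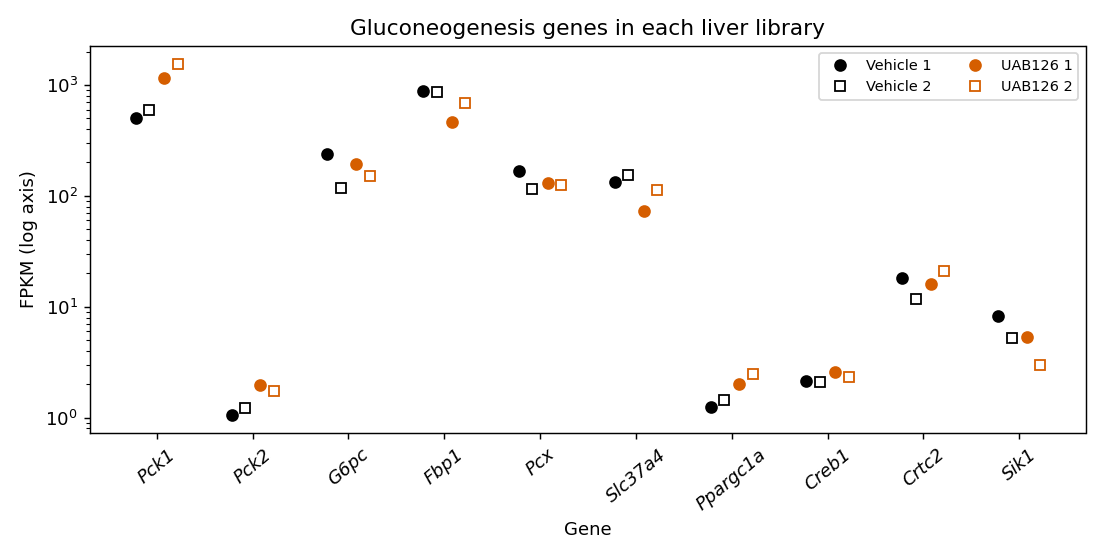
FPKM (log axis) of the 10 gluconeogenesis genes, with a point for each library (vehicle in black and UAB126 in orange, replicate 1 as filled circles and replicate 2 as open squares). Pck1 is the gene whose libraries lie farthest apart between the groups, at 501 and 592 FPKM in the vehicle libraries and 1157 and 1560.4 FPKM with UAB126.

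The libraries and the tissue were checked first. Low values in the table fall on steps worth 1 fragment, and from these steps 1 fragment on a transcript of 1 kb was worth about 0.0648 and 0.112 FPKM for the vehicle libraries (replicate 1 first) and 0.045 and 0.0639 FPKM for those of UAB126, taking the longest annotated transcript as the length of a gene. Vehicle replicate 2 was thus the shallowest library and UAB126 replicate 1 the deepest. The hepatocyte genes Ttr (19625 to 44092 FPKM) and Apoa1 (9453 to 35885 FPKM) were high in each library, while Alb was listed at 0 in 3 of the 4, so its row is doubtful. The high rows were lower with UAB126 as a whole. Among the 272 symbols with a mean of 300 to 1000 FPKM the median difference was -0.45, and among the 614 at 100 to 300 FPKM it was -0.32, but among the 7365 at 1 to 20 FPKM it was 0.04. Both UAB126 libraries lay below both vehicle libraries in 48.2% of the symbols at 300 to 1000 FPKM and above them in 7.35%, and in 47.4% and 9.77% at 100 to 300 FPKM. These level groups were added after the data were seen. The median at 300 to 1000 FPKM ran from -0.65 to -0.21 over the fits without 1 library, and it was -0.25 with the trend of each library with transcript length removed and -0.02 after quantile normalization, which removes such a slope by its construction. Each gene is therefore set beside symbols of its own level, here or further below. Among the symbols at 1 to 20 FPKM, 86.8% had a lower difference than Pck2, 88.9% than Ppargc1a, 63.4% than Creb1 and 79.4% than Crtc2. In bulk liver, fewer cells of a type and less RNA per cell cannot be told apart.

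**Figure D2:**
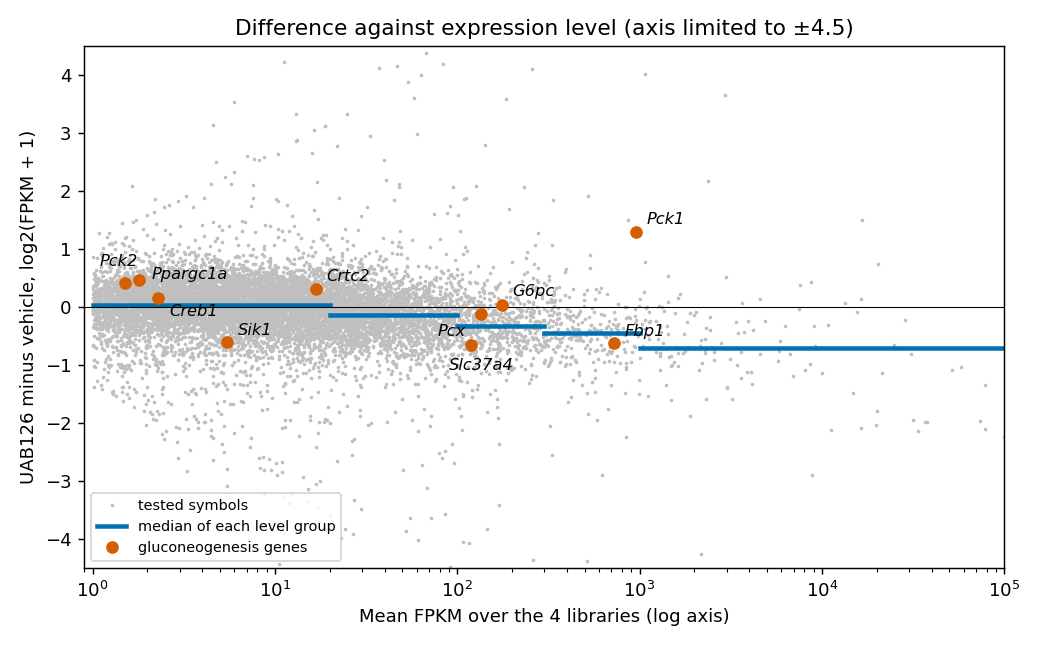
Difference between UAB126 and vehicle on the log2(FPKM + 1) scale against mean FPKM (log axis), for all tested symbols within the axis limits (grey), with the median of each level group (blue bars) and the 10 gluconeogenesis genes (orange). Fbp1 at -0.61 and Slc37a4 at -0.65 lie below the bars of their levels, at -0.45 and -0.32, and Pck1 at 1.30 lies far above the bar at -0.45.

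Promoters of 4 of the genes are shown because both PEPCK genes were higher with UAB126 while G6pc, which answers to the same hormones as Pck1, overlapped, and because Slc37a4 shares with Pck1 the core of the cAMP response element. The sequences are those of RefSeq on GRCm38.p6, from 250 bases before to 50 bases after the start site, 5′ to 3′ on the gene's strand, which is the plus strand for all 4. They are chr2:173152823-173153122 for Pck1, chr9:44396696-44396995 for Slc37a4 (the first of 3 annotated start sites), chr11:101367466-101367765 for G6pc and chr14:55540016-55540315 for Pck2. Capitals mark matches on either strand to TGACGT (core of the cAMP response element), TTACGTCA (a form of the whole element, which overlaps the core), TGTTTTG (a form of the insulin response sequence bound by FOXO proteins) and TGATGNAA (composite site of C/EBP and ATF proteins).
Pck1: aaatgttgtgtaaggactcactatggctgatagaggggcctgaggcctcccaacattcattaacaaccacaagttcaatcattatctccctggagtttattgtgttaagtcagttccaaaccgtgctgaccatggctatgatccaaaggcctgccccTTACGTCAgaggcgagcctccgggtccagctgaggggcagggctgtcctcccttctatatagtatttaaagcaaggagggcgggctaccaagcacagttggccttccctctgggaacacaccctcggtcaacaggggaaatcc
Slc37a4: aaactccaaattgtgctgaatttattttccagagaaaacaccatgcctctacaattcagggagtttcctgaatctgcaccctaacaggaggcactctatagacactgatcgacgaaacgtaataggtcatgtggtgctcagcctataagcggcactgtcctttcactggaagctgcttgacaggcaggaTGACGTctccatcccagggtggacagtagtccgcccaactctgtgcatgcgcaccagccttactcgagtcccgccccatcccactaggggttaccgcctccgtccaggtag
G6pc: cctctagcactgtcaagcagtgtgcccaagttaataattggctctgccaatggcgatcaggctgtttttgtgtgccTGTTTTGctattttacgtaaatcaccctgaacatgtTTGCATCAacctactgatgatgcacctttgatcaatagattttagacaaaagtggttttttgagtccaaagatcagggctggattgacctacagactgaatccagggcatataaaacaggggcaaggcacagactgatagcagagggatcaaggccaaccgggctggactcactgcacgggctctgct
Pck2: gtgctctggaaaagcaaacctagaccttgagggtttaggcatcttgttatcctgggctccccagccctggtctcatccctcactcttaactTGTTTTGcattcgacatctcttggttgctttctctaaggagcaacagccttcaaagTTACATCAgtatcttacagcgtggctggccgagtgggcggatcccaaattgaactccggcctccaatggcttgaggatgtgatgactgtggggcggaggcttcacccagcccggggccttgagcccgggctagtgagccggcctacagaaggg
Pck1 held TTACGTCA 93 bases before its start site, a form found in 0.499% of the 32851 RefSeq promoter windows. Its core, TGACGT read on the other strand, occurs in 7.51% of windows and was also in the windows of Slc37a4 and Ppargc1a, so it was in 3 of the 8 members with an entry, of which Pck1 and Ppargc1a were higher and Slc37a4 lower in both UAB126 libraries. The Ppargc1a window belongs to a start site 13.8 kb outside the deposited Ppargc1a row, and it is not shown for that reason. G6pc and Pck2 each held TGTTTTG (6.28% of windows) and a match to TGATGNAA (3.97%). The palindrome TGACGTCA (1.79%), AGAACA (a half-site of the glucocorticoid receptor, 19% of windows) and CAAAGTCCA (HNF4, 0.475%) were searched and had no match in any window of the 8 members. A match is a string of letters, not a shown binding site. Other forms of these elements were not searched, so a window without a mark may still hold one. The G6pc window, for example, holds ttacgtaa, which is close to the TTACGTCA of Pck1 but was not marked.

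Pck1 encodes cytosolic PEPCK, which commits carbon to glucose, and it lies on chromosome 2 at 173153048 to 173159273 (mm10, plus strand). Its deposited row is wider, with a span of 192.9 kb that overlaps rows of 4 other symbols. Pck1 was at 501 and 592 FPKM in the vehicle libraries and 1157 and 1560.4 FPKM with UAB126. Both UAB126 libraries were above both vehicle libraries, and the gap between the groups was wider than the gap within either. The difference was 1.30 ± 0.29 (95% interval 0.57 to 2.04, unadjusted p = 0.00568, limma adjusted p = 0.234). It ran from 1.09 to 1.52 over the fits without 1 library. In the vehicle libraries Pck1 ranked 266 and 295 by FPKM among the tested symbols, and in the UAB126 libraries it ranked 98 and 105. Ranks do not rest on the scale of a library as a whole, but they also move when other high rows fall. Tpi1, which was lower in both UAB126 libraries, went from ranks 463 and 523 to 364 and 476. The part of this slope in the ranks of Pck1 was not tested. Among the 272 symbols at 300 to 1000 FPKM, 97.8% had a lower difference than Pck1, which ranked 6 from the top.

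Pck1 is also abundant in kidney proximal tubule and in fat, so markers of both were read beside it. Of 5 proximal tubule genes, Slc34a1 and Slc5a2 were at 0.636 and 0.459 FPKM and Kap at 32.8 FPKM in UAB126 replicate 2, and all 3 were listed at 0 in UAB126 replicate 1. The summed level of the 5 was 0.416 and 0.468 FPKM in the vehicle libraries and 0.499 and 35.2 FPKM with UAB126. The remaining Lrp2 and Miox were at 0.254 and 0.245 FPKM in UAB126 replicate 1 and at 0.524 and 0.768 FPKM in replicate 2. The part of either tissue in the Pck1 values was not tested. Of 5 adipocyte genes, Adipoq was at 2.80 and 2.59 FPKM in the vehicle libraries and 2.09 and 4.47 FPKM with UAB126. Their summed level was 219.9 and 59.6 against 7.27 and 33.4 FPKM, of which Cfd held 213 and 51.2 against 2.54 and 19.6 FPKM.

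Pck2, the mitochondrial form (chromosome 14, 55540266 to 55551242, plus strand), was at 1.05 and 1.22 FPKM in the vehicle libraries and 1.99 and 1.74 FPKM with UAB126. The groups did not overlap, and the ratio of means was 1.64. The difference was 0.42 ± 0.21 (95% interval -0.12 to 0.96, limma adjusted p = 0.431). These values rest on about 75.1 and 50.6 fragments in vehicle and 204 and 126 with UAB126. The counts take 4625 bases, the longest transcript marked as principal in GENCODE, as the length of Pck2, and would be lower for a shorter one. With a pseudocount of 0.1 the difference was 0.67. Pck2 was far below Pck1 in FPKM in each library.

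Pcx, which makes oxaloacetate from pyruvate in mitochondria (chromosome 19, 4510472 to 4621752, plus strand), was at 167 and 116 FPKM in the vehicle libraries and 130.3 and 124 FPKM with UAB126. Both UAB126 libraries lay between the vehicle libraries. The difference was -0.13 ± 0.26 (95% interval -0.78 to 0.53, limma adjusted p = 0.837). It was 0.13 without vehicle replicate 1, -0.39 without vehicle replicate 2 and 0.20 after quantile normalization, so no direction can be given. The median at the level of Pcx was -0.32, and 66.9% of the symbols there had a lower difference than Pcx.

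Fbp1, the bisphosphatase (chromosome 13, 62864753 to 62888282, minus strand), was at 882 and 858 FPKM in the vehicle libraries and 466 and 692 FPKM with UAB126. It was the highest of the 10 genes in vehicle and stood below Pck1 with UAB126. The groups did not overlap, but the UAB126 libraries differed from each other by more than the nearer one did from vehicle. The difference was -0.61 ± 0.30 (95% interval -1.37 to 0.14, limma adjusted p = 0.425), near the median of -0.45 at its level, and 33.1% of the symbols at that level had a lower one. It shrank to -0.11 after quantile normalization, to -0.35 with the length trend removed and to -0.33 without UAB126 replicate 1.

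G6pc, the catalytic subunit of glucose-6-phosphatase (chromosome 11, 101367561 to 101377903, plus strand), was at 239.7 and 117 FPKM in the vehicle libraries and 194 and 151 FPKM with UAB126. Both UAB126 libraries again lay between the vehicle libraries. The difference was 0.03 ± 0.39 (95% interval -0.96 to 1.02, limma adjusted p = 0.979). The interval is wide because the vehicle libraries differed, and the value was 0.55 without vehicle replicate 1 and -0.48 without vehicle replicate 2. A 2-fold change of G6pc in either direction is close to the ends of this interval. The median at the level of G6pc was -0.32, and 78.8% of the symbols there had a lower difference than G6pc.

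Slc37a4, which moves glucose-6-phosphate into the endoplasmic reticulum for G6pc (chromosome 9, 44396852 to 44402968, plus strand), was at 134 and 155 FPKM in the vehicle libraries and 73.5 and 114 FPKM with UAB126. The groups did not overlap. The difference was -0.65 ± 0.29 (95% interval -1.37 to 0.07, limma adjusted p = 0.397), beside a median of -0.32 at its level, where 21.5% of the symbols had a lower one. It was -0.35 after quantile normalization and -0.34 without UAB126 replicate 1. The deposited rows of Pck1, G6pc, Pcx and Slc37a4 span 192.9 to 328.9 kb and overlap rows of 4 to 11 other symbols, and how fragments were assigned there was not stated in the labels.

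**Figure D3:**
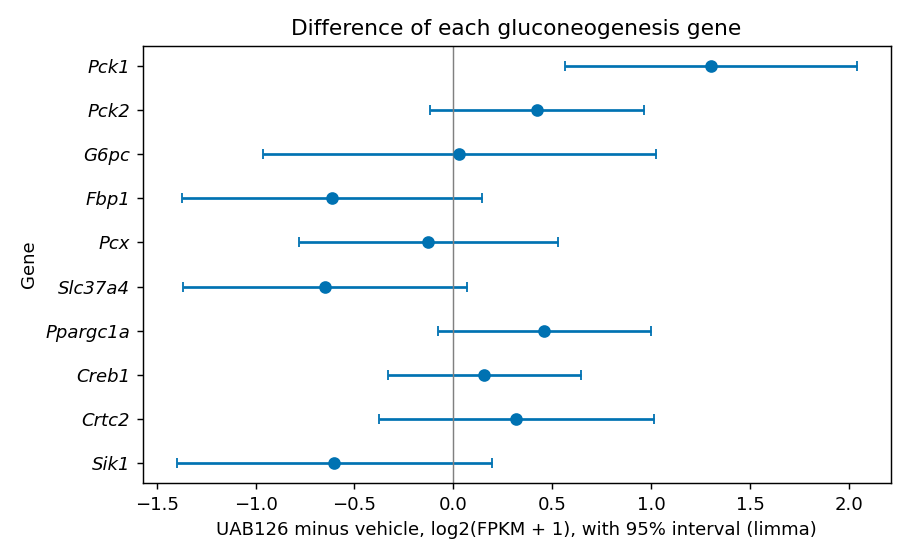
Difference between UAB126 and vehicle for each of the 10 genes on the log2(FPKM + 1) scale (points), with 95% intervals from limma (bars, n = 2 per group). The interval of Pck1, 0.57 to 2.04, is the only one that does not reach 0, and these intervals are not adjusted for the number of genes.

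Among the regulators, Ppargc1a, which encodes the coactivator PGC-1α (chromosome 5, 51454250 to 51567726, minus strand), was at 1.26 and 1.44 FPKM in the vehicle libraries and 2.01 and 2.46 FPKM with UAB126. Both UAB126 libraries were higher, with a ratio of means of 1.66 and a difference of 0.46 ± 0.21 (95% interval -0.08 to 1.00, limma adjusted p = 0.41). The pseudocount of 1 understates the change of so low a gene, and with a pseudocount of 0.1 the difference was 0.69. At its level, 1 to 20 FPKM, 26.7% of symbols had both UAB126 libraries higher and 21.5% both lower.

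Creb1, the cAMP-responsive transcription factor (chromosome 1, 64532645 to 64604548, plus strand), was at 2.14 and 2.10 FPKM in the vehicle libraries and 2.61 and 2.35 FPKM with UAB126. The groups did not overlap but the difference was small, at 0.16 ± 0.19 (95% interval -0.33 to 0.64, limma adjusted p = 0.72), 0.10 without UAB126 replicate 1 and 0.01 with the length trend removed. Crtc2, its coactivator (chromosome 3, 90254163 to 90264125, plus strand), was at 18.1 and 11.7 FPKM in the vehicle libraries and 15.99 and 21.2 FPKM with UAB126. The groups overlapped, with a difference of 0.32 ± 0.28 (95% interval -0.38 to 1.01, limma adjusted p = 0.599). Leaving out vehicle replicate 1 gave 0.62 and leaving out vehicle replicate 2 gave 0.02, and for the UAB126 replicates these values were 0.51 and 0.13.

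Sik1, the kinase that restrains CRTC2 (chromosome 17, 31844250 to 31855804, minus strand), was at 8.33 and 5.22 FPKM in the vehicle libraries and 5.29 and 3.001 FPKM with UAB126. Vehicle replicate 2 and UAB126 replicate 1 were nearly level, so the groups overlapped. The difference was -0.60 ± 0.32 (95% interval -1.40 to 0.19, limma adjusted p = 0.435). It was -0.28 without UAB126 replicate 2, -0.31 without vehicle replicate 1 and -0.93 without UAB126 replicate 1, and among symbols at 1 to 20 FPKM 8.26% had a lower difference. Post-translational control of CREB, CRTC2 and SIK1 is not seen in RNA.

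Ratios of 2 genes within a library do not depend on how that library was scaled as a whole. A slope with expression level, as described above, does not cancel between genes of different levels. The median difference was -0.45 at the level of Fbp1, for example, and 0.04 at that of Pfkl. Pck1 and Pklr (liver pyruvate kinase) run opposite steps between pyruvate and phosphoenolpyruvate. The ratio of Pck1 to Pklr was 2.95 and 7.55 in vehicle and 21.7 and 42.9 with UAB126, so the geometric mean was 6.46-fold higher. It did not overlap between the groups. The ratio of Fbp1 to Pfkl (liver phosphofructokinase) was 76.8 and 58.7 in vehicle and 43.5 and 60.9 with UAB126, and overlapped. The ratio of Pck1 to G6pc was 2.09 and 5.07 in vehicle and 5.98 and 10.3 with UAB126, where vehicle replicate 2 came close to UAB126 replicate 1. Its log2 change was 1.27, with a range of 0.64 to 1.91 over the fits without 1 library. These pairs were chosen with the values known, and no test was run on them.

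**Figure D4:**
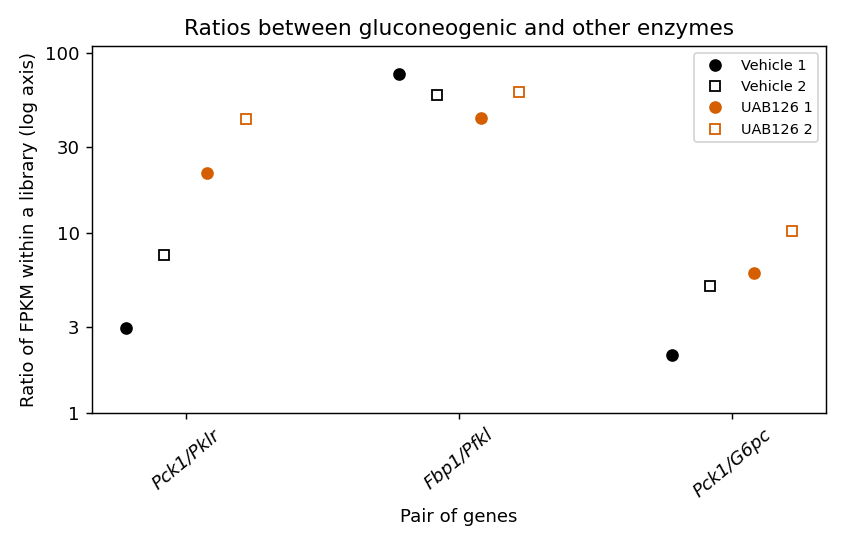
Ratio of FPKM of 2 genes within each library (log axis), with filled circles for replicate 1, open squares for replicate 2, black for vehicle and orange for UAB126. Pck1/Pklr lies at 2.95 and 7.55 in vehicle and at 21.7 and 42.9 with UAB126, while Fbp1/Pfkl overlaps.

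The rest of the pathway was read from 7 lists with 75 genes in all, of which 69 were tested. None passed the threshold and 11 had an unadjusted p under 0.05 (limma), against 13.4% of all tested symbols. Both UAB126 libraries were higher in 15 and lower in 23, against 22.7% and 26.9% of all tested symbols, and the median difference was 0.0064, beside -0.03 over all. The counts of each list below are to be read against these shares, and for genes at 100 to 300 FPKM against 9.77% higher and 47.4% lower.

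Of 7 genes of the opposing glycolytic steps, 0 were higher and 3 lower in both UAB126 libraries, and the median difference was -0.21. The list holds regulators as well as enzymes of these steps: Gckr and the Pfkfb genes encode regulators, and the kinases Pdk2 and Pdk4 inhibit pyruvate dehydrogenase. Pklr was at 169 and 78.5 FPKM in the vehicle libraries and 53.4 and 36.4 FPKM with UAB126 (difference -1.37 ± 0.42, limma adjusted p = 0.306). Gckr was at 193 and 197 against 123 and 137 FPKM (-0.58 ± 0.21), beside a median of -0.32 at its level. Pfkl, liver phosphofructokinase, was at 11.5 and 14.6 against 10.7 and 11.4 FPKM (-0.21 ± 0.20). These 3 genes kept their sign in each alternative fit, Pklr from -1.92 to -0.82 (the latter without vehicle replicate 1), Gckr from -0.66 to -0.21 (the latter after quantile normalization) and Pfkl from -0.38 to -0.05 (without vehicle replicate 1 and without vehicle replicate 2).

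Of 11 tested genes of substrate entry, 3 were higher and 4 lower in both UAB126 libraries. Gpd2, the mitochondrial glycerol-3-phosphate dehydrogenase, was at 7.56 and 5.33 FPKM in the vehicle libraries and 13.2 and 11.3 FPKM with UAB126 (a difference of 0.84 ± 0.22, limma adjusted p = 0.27). Ldha, which interconverts lactate and pyruvate, was at 702 and 721 against 377 and 470.3 FPKM (-0.76 ± 0.26), beside a median of -0.45 at its level, and its difference was -0.29 after quantile normalization. Ldhb, its partner subunit, was at 11.1 and 48.1 against 4.04 and 6.54 FPKM (-1.99 ± 0.66). The size of this value depends on the wide gap between the vehicle libraries. It was -2.99 without vehicle replicate 1 and -0.98 without vehicle replicate 2, each with 1 vehicle library left.

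In the carbon shuttle and pyruvate import list 1 of 10 genes was higher and 2 lower. Mpc1, a subunit of the mitochondrial pyruvate carrier, was at 11.4 and 7.86 FPKM in the vehicle libraries and 13.8 and 23.5 FPKM with UAB126 (0.86 ± 0.32). Its difference was 0.49 without UAB126 replicate 2 and 1.29 with the length trend removed. The dicarboxylate carrier gene Slc25a10 was at 103 and 69.3 against 47.0 and 57.3 FPKM (-0.69 ± 0.27, and -0.41 without vehicle replicate 1). The aspartate and glutamate carrier gene Slc25a13 differed by -0.34 ± 0.22, by -0.20 without UAB126 replicate 1 and by -0.03 after quantile normalization. Mdh1, cytosolic malate dehydrogenase and the highest of the list, was at 781 and 1176 against 595 and 794 FPKM and overlapped. Of 5 tested shared reversible enzymes 0 were higher and 2 lower. Eno1, an enolase, was at 80.5 and 89.8 against 62.8 and 75.3 FPKM (-0.30 ± 0.21), and its difference was -0.07 after quantile normalization and -0.17 both without UAB126 replicate 1 and with the length trend removed. Tpi1, triosephosphate isomerase and the highest of the list, was at 259.97 and 282 against 251 and 253 FPKM (-0.10 ± 0.22), and its sign turned after quantile normalization and with the length trend removed. Gapdh was listed at 0.685 to 1.78 FPKM, too low for a glycolytic enzyme of liver, so its row is doubtful.

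In the glucagon and cAMP arm 4 of 17 tested genes were higher and 8 lower. The glucagon receptor gene Gcgr was at 291 and 335 FPKM in the vehicle libraries and 166 and 209.7 FPKM with UAB126 (a difference of -0.74 ± 0.25, limma adjusted p = 0.324), beside a median of -0.32 at its level, and its difference was -0.40 after quantile normalization. Sik3, a relative of Sik1, was at 20.6 and 17.2 against 24.7 and 29.96 FPKM, and its difference of 0.51 ± 0.21 was of the other sign than that of Sik1. The CREB relative Atf1 differed by -0.44 ± 0.19 (-0.29 without vehicle replicate 2), and Gnas, the stimulatory G protein and the highest of the list, by -0.37 ± 0.25, with its sign turned by quantile normalization. Among 16 transcription factors and coregulators 6 were higher and 3 lower, with a median difference of 0.15. Foxo1, which activates Pck1 and G6pc when insulin is low, was at 10.6 and 10.6 against 16.4 and 20.2 FPKM (0.73 ± 0.19, limma adjusted p = 0.27). The orphan receptor gene Nr4a1 was at 4.505 and 2.27 against 1.20 and 1.03 FPKM (-1.01 ± 0.30, and -0.63 without vehicle replicate 1). Cebpa differed by -0.49 ± 0.21, beside a median of -0.32 at its level, and by -0.14 after quantile normalization. Cebpb, the highest of the list, was at 135 and 210.4 against 140.2 and 297 FPKM and overlapped.

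Of 6 relatives of the members, 3 were tested, with 1 higher and 1 lower. G6pc2, a form of pancreatic islets, was listed at 0 in each library, and Fbp2, the muscle bisphosphatase, was at 0.342 to 0.752 FPKM. G6pc3, the widely expressed form, was at 8.39 and 6.85 FPKM in the vehicle libraries and 7.06 and 9.75 FPKM with UAB126. The Slc37a4 relatives Slc37a1 and Slc37a3 differed by -0.58 ± 0.27 and 0.38 ± 0.17, and Slc37a1 by -0.31 without vehicle replicate 2 and by -0.94 with a pseudocount of 0.1.

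**Figure D5:**
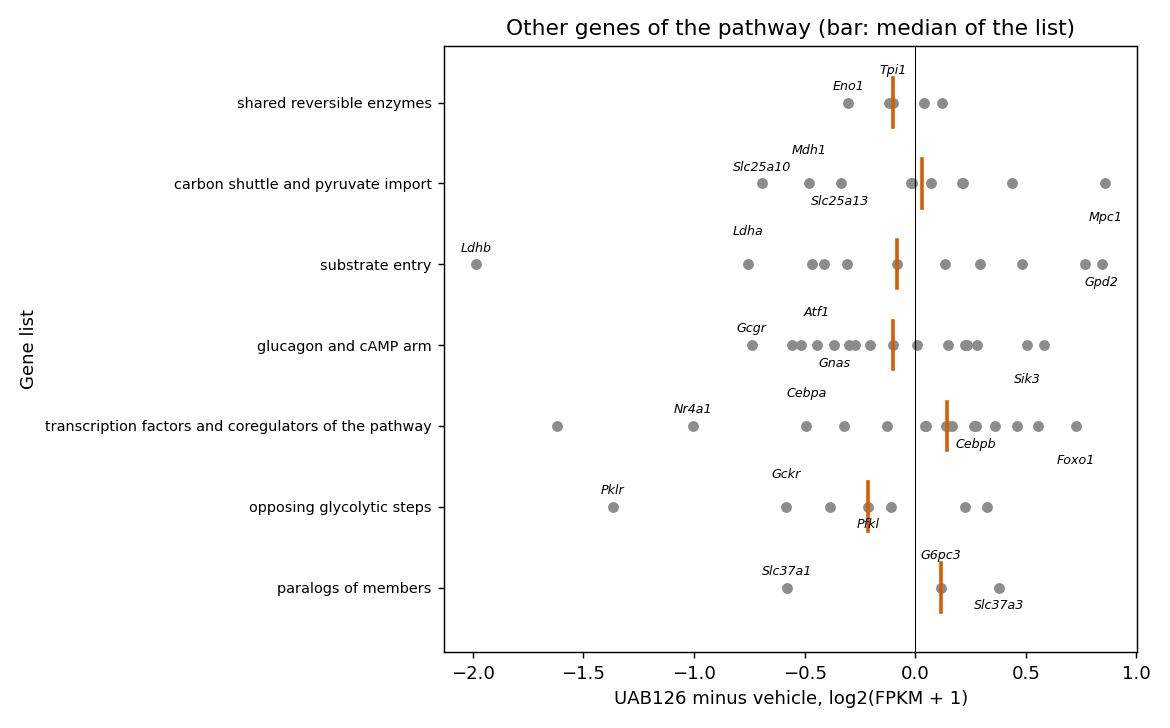
Difference between UAB126 and vehicle on the log2(FPKM + 1) scale for the 69 tested genes of the 7 other lists (grey points), with the median of each list (orange bars) and the names of the genes given in the text. The opposing glycolytic steps have the lowest median, at -0.21, with Pklr at -1.37.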

How the data were processed

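Liver RNA of 4 libraries (2 vehicle, 2 UAB126) was sequenced from both ends after selection for polyadenylated RNA, per the labels' protocols. The authors deposited 1 table of FPKM values; Cuffdiff, Cufflinks 2.2.1, STAR 2.5.1b and Trim Galore 0.4.1 are named, with the build mm10, per the submitters' processing notes. The annotation and the settings are not given in the sources read. Rows with no symbol (3634 of 27216) were left out and rows of 1 symbol summed. Depth is unknown from the FPKM themselves and was estimated from single-fragment steps. Symbols whose mean reached 1 FPKM were fitted as log2(FPKM + 1) with limma 3.58.1 in R 4.3.3 (intensity trend, group only, two-sided, Benjamini-Hochberg adjusted). The method was tested on simulated data with independent noise for each gene and library. Those data held no slope with level or transcript length, so they cannot show how the method behaves under one. Positions came from GENCODE on GRCm38 (mm10), matched by symbol. Named besides the members were, per list, up to 3 genes with the smallest p among those whose groups did not overlap (none passed the threshold), and the gene with the highest mean. Gapdh, G6pc2, Fbp2 and the marker genes were chosen after their values were seen. Members and lists were chosen with earlier results of these data known. Genes withheld from the lists are not reported here. Alternatives are in the closing section. Figures used matplotlib 3.10.9 in Python 3.11.15.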

Additional observations from a re-analysis of the deposited data

How the results depend on the processing

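Of 127 refits of the 10 genes, 122 kept their sign and their side of the threshold. The same held for 289 of 297 refits of the other named genes. The count of symbols past the threshold, 15 (5 higher, 10 lower; limma), was 23 with libraries centred on their median, 27 with a pseudocount of 0.1, 24 after quantile normalization (12 higher, 12 lower) and 0 with no filter on low values, where 1764 had an unadjusted p under 0.05. It ran from 0 (without UAB126 replicate 2, with 737 at an unadjusted p under 0.05) to 442 (without vehicle replicate 1), and was 56 without vehicle replicate 2; there the lone library of a group is assumed to vary like the other group. With the replicate number as a block the count was 148, and Pck1, at 1.30 ± 0.15, had a limma adjusted p of 0.046. The numbers only name libraries: deviations of same-numbered libraries correlated at 0.18 across symbols, and no label pairs them. Over the other 12 alternatives the adjusted p of Pck1 ran from 0.067 to 0.797.

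The sign turned for G6pc (-0.48 to 0.55 over fits without 1 library) and for Pcx (-0.39 to 0.13 over those, and 0.20 after quantile normalization). After quantile normalization it also turned for Tpi1 (0.27) and Gnas (0.11), for Tpi1 with the length trend removed (0.13), and over fits without 1 library for Cebpb (-0.27 to 0.81) and G6pc3 (-0.091 to 0.32). The log2 change of the Fbp1 to Pfkl ratio went from -0.40 to 0.07 after quantile normalization. The cause of these moves was not tested. Depth limits Pck2, Ppargc1a and Creb1 most, with about 50.6, 83.6 and 94.2 fragments in vehicle replicate 2, at the length of the longest principal transcript. At a mean of at least 5 FPKM these 3 genes and 2 other low genes, Nr4a1 and Slc37a1, were not fitted.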

Other observations

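Hepatocytes around the portal vein carry most gluconeogenesis, and those around the central vein more glycolysis, so markers of both zones were read. Of 9 tested periportal genes, both UAB126 libraries were higher in 3 and lower in 2, with a median difference of 0.28, and none passed the threshold. Over all tested symbols 22.7% were higher and 26.9% lower in this way, the shares against which the counts of all marker lists are to be read. Cyp2f2, a periportal cytochrome P450, was at 741 and 837 FPKM in the vehicle libraries and 1286 and 1417 FPKM with UAB126, while Pigr was at 792 and 802 against 454 and 509 FPKM. Of 10 tested pericentral genes, 0 were higher and 5 lower, with a median of -0.37, and none passed. Of these 5, Axin2, was listed at 31318 to 239373 FPKM, too high for a signalling gene, so its row is doubtful. Without it 4 of 9 were lower and the median was -0.06. Glul, glutamine synthetase of the innermost pericentral cells, was at 673 and 649 against 383 and 421 FPKM, and Rhbg at 12.3 and 10.3 against 5.07 and 7.62 FPKM. Oat, with the largest difference of the list, was at 540 and 599 against 87.0 and 106 FPKM (-2.56 ± 0.24, limma adjusted p = 0.0531). Lect2 was at 336 and 388 against 212 and 238 FPKM. Pericentral Gulo (267 and 221 against 228 and 237 FPKM) and Slc1a2 (34.1 and 34.5 against 34.4 and 40.7 FPKM) overlapped. The zone genes named here were chosen after their values were seen. Several of these genes are at levels where most symbols were lower with UAB126, and the part of that slope in these values was not tested.

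Of 11 tested Kupffer cell and macrophage genes 4 were higher and 0 lower, and their summed level was 131.8 and 391.8 FPKM in the vehicle libraries and 286 and 362 FPKM with UAB126, lowest in vehicle replicate 1. Among all symbols at 1 to 20 FPKM, where many of these genes lie, 26.7% were higher in both UAB126 libraries. In the hepatocyte list 1 of 10 was higher and 6 lower. Without the doubtful Alb row, 1 of 9 was higher and 6 lower, with a median of -0.75. Ttr, Apoa1 and Fgb of this list are rows above 1000 FPKM, where the median difference of all symbols was -0.70. The other lower genes were Asgr1 (-0.79) and Serpina1a (-0.66), beside a median of -0.45 at their level, and Asgr2 (-0.75), beside -0.32. Tat was the higher gene, at 393 and 513 FPKM in the vehicle libraries and 1118 and 1431 FPKM with UAB126. The other 7 marker lists, of blood, vessel, duct, stroma and pancreas cells, had 24 tested genes, 4 higher, 3 lower and none past the threshold. The pancreas genes Prss1, Pnlip and Amy2a5 were listed at 0 in each library. Cela1 of the same list was not, at 73.8 and 122 FPKM in the vehicle libraries and 47.7 and 51.5 FPKM with UAB126. Cela2a was at 0.0845 and 0.723 FPKM in the vehicle libraries and 0.876 and 2.33 FPKM with UAB126.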
